A study of Mus musculus with 10 samples.

Results

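The major histone gene cluster of the mouse lies on chromosome 13, and the stretch described here runs from 21700001 to 24100000 in the mm9 build, a span of 2.4 Mb. Its members are all islands of enrichment, out of 8 lists, that overlap this span by position alone. They number 391 of 301484 islands in all, from 35 to 63 per list, and merge into 68 of 59989 regions. The lists come from chromatin immunoprecipitation and sequencing (ChIP-seq) of mononucleosomes from fractionated testis cells of Oncins France 1 mice, at 2 stages. Spermatocytes are germ cells passing through meiosis, and round spermatids are its haploid products. In each stage, antibodies against histone H4 acetylated at lysine 5 (H4K5ac) or 8 (H4K8ac), or butyrylated at lysine 5 (H4K5bu) or 8 (H4K8bu), gave 1 library per mark, and nucleosomes without immunoprecipitation gave the input library. Both stages shared the buffer with 10 mM sodium butyrate and the amounts of 100 µg of mononucleosomes and 5 µg of antibody per immunoprecipitation. The butyryl antibodies came from a company (PTM Biolabs) and the acetyl antibodies were a gift, so a difference in fold between marks includes that between antibodies. The labels give no age, no genotype and no purity of the cell fractions, and do not say how many animals went into a library.

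With 1 library per group there was no replicate, so a difference between libraries has no replicate spread to be read against, and no p-value was computed. Intervals are 95% intervals. They cover counting error for reads and islands, and the spread between regions for a median. They do not allow for the naming of regions by an extreme value.

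Histone genes come in clusters. The replication-dependent genes for the linker histone H1 and the core histones H2A, H2B, H3 and H4 lie side by side, are transcribed mainly while DNA is copied, and give mRNAs that end in a stem-loop instead of a poly(A) tail. The cluster on chromosome 13 also holds the testis variants H1t, TH2A and TH2B, which replace part of the somatic histones from the spermatocyte stage on. Acetylation of H4 at lysines 5 and 8 is typical of active promoters, and butyrylation places a longer acyl chain on the same lysine, so the modifications exclude each other on 1 lysine of 1 histone.

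In the RefSeq table for GRCm38.p6 the cluster holds 55 histone genes, 6 for H1, 14 for H2A, 15 for H2B, 9 for H3 and 11 for H4. Of these, 54 are listed as protein-coding, and H2ac14 of the H2A family as a pseudogene. From the first to the last of the histone genes the table lists 255 genes of all kinds. The longest run without a histone gene lies between H2bc11 (an H2B gene) and H4c8 (an H4 gene), with 24 histone genes before it and 31 after it. It holds 147 genes, of which 75 have names of the vomeronasal receptor family Vmn1r, receptors of a sensory organ of the nose, and 46 are tRNA genes. The next longest run, between H4bc24 and H2ac12, holds 39 genes, of which 31 are tRNA genes. Genes H2bc1 for TH2B and H2ac1 for TH2A come last in the order. The islands are in mm9 and the gene table is in another build, so islands were not placed on genes or promoters, the bounds of the gene cluster in mm9 were not checked, and the stage labels were not checked against marker genes.

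Promoters of the testis variants are given as examples of sequence from the cluster, and need not be typical of its other genes. The 250 bases before the annotated start are given 5′ to 3′ from RefSeq (GRCm38.p6, chromosome 13, both on the plus strand), with capitals for the CCAAT motif, the TATAAA motif and the octamer ATGCAAAT, known from histone H2B promoters, on either strand.
H1f6, coding for H1t: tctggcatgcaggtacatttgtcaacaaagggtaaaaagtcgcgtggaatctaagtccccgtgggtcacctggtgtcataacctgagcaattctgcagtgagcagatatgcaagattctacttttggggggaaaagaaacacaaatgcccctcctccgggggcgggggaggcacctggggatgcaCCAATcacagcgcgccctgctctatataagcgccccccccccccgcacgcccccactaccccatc
H2ac1, coding for TH2A: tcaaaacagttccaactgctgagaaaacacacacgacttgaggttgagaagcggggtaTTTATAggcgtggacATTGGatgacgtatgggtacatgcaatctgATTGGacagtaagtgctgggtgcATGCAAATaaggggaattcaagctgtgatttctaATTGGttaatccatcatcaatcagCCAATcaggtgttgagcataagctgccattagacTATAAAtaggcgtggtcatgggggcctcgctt
The windows of H2ac1 and of H2bc1, on the opposite strand, share 220 bases, so the TH2A sequence is also most of the TH2B promoter. It holds 4 matches to CCAAT, 2 to TATAAA and 1 to the octamer, while that of H1t holds 1 match to CCAAT and none to the other motifs. Of the 55 histone genes, 51 had promoter sequence, in 52 windows of 300 bases that run on for 50 bases past the start. CCAAT or its complement was in 84.6% of these windows, against 37.4% of the 32851 windows of all genes. TATAAA was in 59.6% against 13.6%, and the octamer in 21.2% against 1.74%. Only exact matches were counted, so near variants of a motif are left out. A match is a description of letters and not a measured site of binding.

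All 4 marks were denser in the span than on the rest of chromosome 13 in both stages. The span held 63 H4K5ac islands in spermatocytes, 26.2 per Mb against 17.9 on the rest of the chromosome, a ratio of 1.47 (1.125 to 1.89). In round spermatids it held 54, 22.5 per Mb against 14.4, a ratio of 1.56 (1.165 to 2.04). For H4K5bu the span held 50 and 46 islands, with ratios of 1.32 (0.977 to 1.75) in spermatocytes, next to 1.23 (0.894 to 1.64) in round spermatids. For H4K8ac it held 47 and 35, with ratios of 1.32 (0.967 to 1.765) and 1.375 (0.953 to 1.92). For H4K8bu it held 54 and 42, with ratios of 1.34 (1.001 to 1.75) and 1.33 (0.956 to 1.81). The interval lay above 1 for H4K5ac in both stages and for H4K8bu in spermatocytes, and held 1 in the other 5 lists. It treats islands as independent, although their counts were uneven along the chromosome. For H4K5ac in spermatocytes, other windows of 2.4 Mb held from 16 to 121 islands. An interval above 1 is thus no test of the span against other places. The bases covered differed more: islands covered from 7.3% (H4K8ac, round spermatids) to 12.1% (H4K8bu, round spermatids) of the span, and from 4.27% to 6.78% of the rest of the chromosome. Other places on chromosome 13 were as dense. Of 47 other windows of 2.4 Mb, between 3 (H4K5ac, round spermatids) and 13 (H4K5bu, round spermatids) held as many islands or more, and between 2 and 5 had as many covered bases or more.

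**Figure D1:**
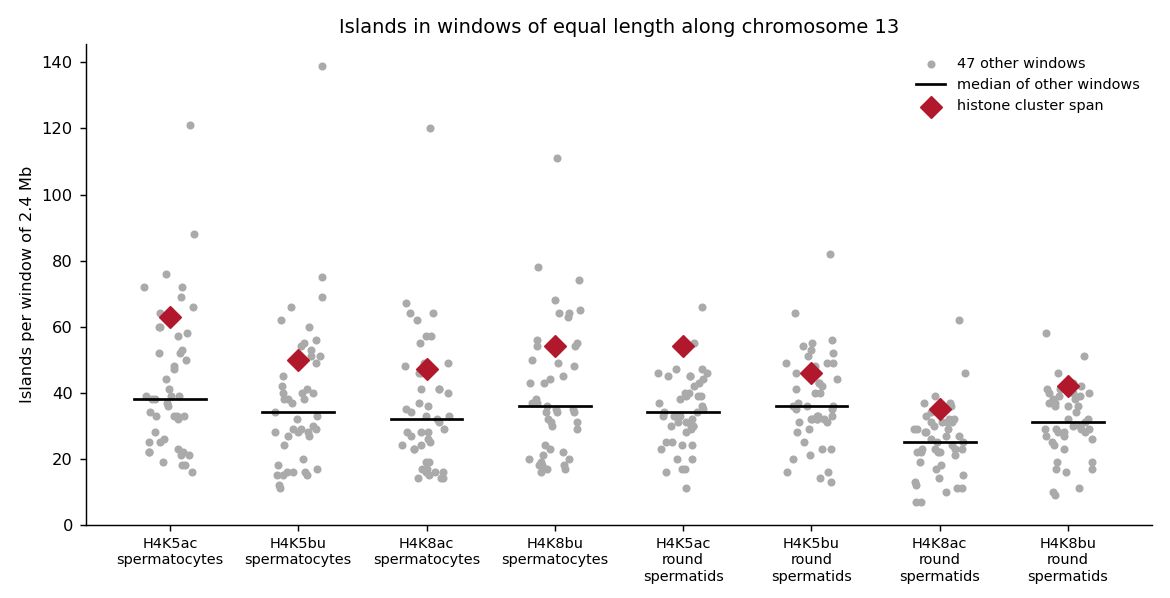
Number of islands (vertical axis) in windows of 2.4 Mb along chromosome 13, for each of the 8 lists (horizontal axis). Gray points are the 47 other windows, black lines their median, and red diamonds the histone cluster span, which lies above the median in every list (63 islands against a median of 38 for H4K5ac in spermatocytes).

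The islands of the span also had a somewhat higher fold over input and were longer. Their median length per list ran from 3000 to 5200 bp, against 2400 to 3800 bp on the rest of chromosome 13. Pooled over the span, the fold over input (ChIP reads over input reads, scaled by library size) in spermatocytes was 7.03 (6.76 to 7.32) with H4K5ac. With H4K5bu it was 4.59 (4.41 to 4.77), with H4K8ac 4.28 (4.09 to 4.48) and with H4K8bu 5.07 (4.89 to 5.25). On the rest of chromosome 13 it was 5.81, 3.65, 3.62 and 4.29 in the same order. In round spermatids the span had 6.12 (5.92 to 6.33), 4.54 (4.38 to 4.70), 3.36 (3.22 to 3.504) and 4.21 (4.08 to 4.36), and the rest of the chromosome 5.33, 3.98, 3.09 and 3.79. The reads behind these pooled values numbered 7169 to 16048 ChIP and 2402 to 4779 input reads per list. The median fold of single islands was also higher in the span in each list, but close for H4K8bu. For that mark it was 4.31 against 4.13 on the rest in spermatocytes and 3.63 against 3.53 in round spermatids. Over all H4K8bu islands it was 4.41 and 3.51. Input reads ran at 12.6 to 13.03 per kb of island in spermatocytes and 16.2 to 17.3 in round spermatids. On the rest of the chromosome they ran at 15.5 to 16.7 and at 17.8 to 18.4, so input in the islands of the span was the lower one in each list. The part of this lower input in the higher fold of the span was not tested. How reads from near-identical histone gene copies were placed is not given in the sources used here.

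Along the span the islands were far from even. Of 24 bins of 100 kb, 13 had islands of all 8 lists and 7 had none of any list. Gaps of at least 100 kb without an island parted the regions into 5 stretches, of which the second, a single region, and the third were joined as the middle. This grouping and the names were chosen after the positions were seen. The left stretch, from 21801201 to 22144400, held 23 regions. After it came a sparse middle of 10 regions from 22288601 to 22838200, with a gap of 143.6 kb after its first region, and then 523 kb without an island of any list, the longest gap. The right stretch, from 23361201 to 23871800, held 32 regions, and the end, from 24018601 to 24064600, held 3. The left and the right stretch thus carried 55 of the 68 regions.

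**Figure D2:**
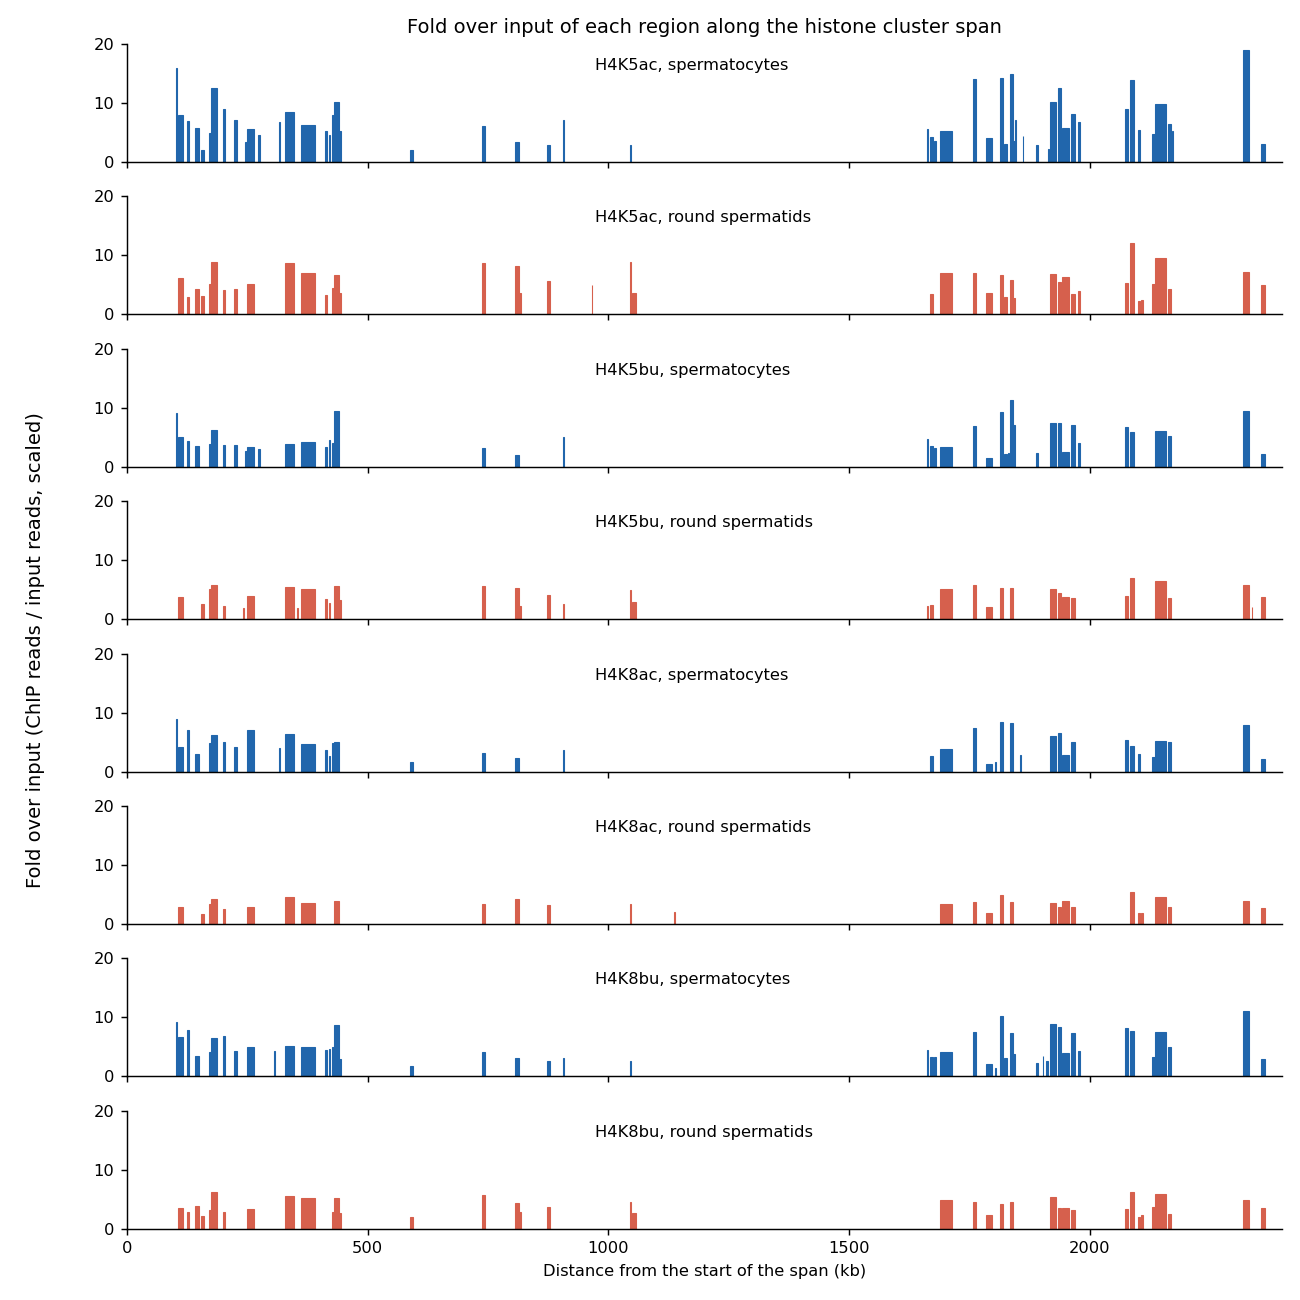
Fold over input (vertical axes) of every region along the span, by distance from its start in kb (horizontal axis), 1 row per mark and stage, blue for spermatocytes and red for round spermatids. Each bar is as wide as the merged region, which can be wider than the list's own islands. The 10 middle regions stand alone between the left and the right stretch, and the highest bar, 19.1 for H4K5ac in spermatocytes, is at the end of the span.

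Of the 68 regions, 24 were called in all 8 lists, 35.3% (24.08 to 47.8), against 24.7% on the rest of chromosome 13 and 26.1% of all regions. These 24 regions held 83.3% of the ChIP reads of the span over the 8 lists. Their median length was 8800 bp, against 8000 bp for such regions on the rest of the chromosome. At the other extreme, 14 regions were called in 1 list only, 20.6% against 15.9% of all regions, with a median length of 1800 bp. Most of the 68 regions had a mark in both stages. Regions with some mark in spermatocytes and none in round spermatids numbered 16, 23.5% against 29.3% of all regions, and those with the reverse numbered 8, 11.8% against 23.1%. A change from 4 marks to none was found once, 1.47% (0.0372 to 7.92) against 11.4% of all regions, and the reverse change in 0 of 68 (interval up to 5.28%), against 4.91% of all regions.

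In the 24 regions with all lists, H4K5ac had the highest fold of the 4 marks in 23 in spermatocytes and in 22 in round spermatids. H4K8ac had the lowest in 14 and in 19. These counts were not made outside the span. Pooled over the rest of chromosome 13, H4K5ac also had the highest fold (5.81 and 5.33) and H4K8ac the lowest (3.62 and 3.09). Across regions the log2 folds of any pair of marks in a stage went together, with Pearson's r from 0.813 to 0.908 in spermatocytes (34 to 45 regions) and from 0.868 to 0.924 in round spermatids (27 to 37 regions). These r are descriptions, since the marks of a stage share 1 input library and adjacent regions are not independent. They were not computed outside the span, so they cannot be called particular to it. Between the stages, which have separate input libraries, r was 0.43 over 40 H4K5ac regions, 0.43 over 30 H4K5bu regions, 0.475 over 25 H4K8ac regions and 0.42 over 33 H4K8bu regions. On the rest of the chromosome it was 0.39, 0.40, 0.435 and 0.35.

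The strongest region in spermatocytes was the first of the end, from 24018601 to 24030800. There the H4K5ac fold was 19.1 (15.2 to 24.3) in spermatocytes, from 903 ChIP and 80 input reads, and 7.11 (6.07 to 8.36) in round spermatids, from 682 and 203. The H4K5bu fold was 9.47 (7.79 to 11.6) and 5.87 (5.01 to 6.9), the H4K8ac fold 7.95 (6.44 to 9.91) and 3.94 (3.297 to 4.72), and the H4K8bu fold 11.03 (9.09 to 13.5) and 4.845 (4.14 to 5.69). All 4 marks were thus strong in both stages and lower in round spermatids, with intervals that do not meet. The region was named for its folds in spermatocytes and its drop in H4K5ac, a choice that the intervals do not allow for. The H4K5ac island covered 8200 bp in spermatocytes and 11000 bp in round spermatids, while the H4K8ac islands covered 8800 bp in both stages.

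The regions next in strength in spermatocytes were short. That from 21801201 to 21803800, at the left edge of the islands, had an H4K5ac fold of 15.9 (8.02 to 36.1), and H4K5bu, H4K8ac and H4K8bu stood at 9.07, 8.98 and 9.26, each over 9 to 14 input reads, and no island in round spermatids. It is the only region with a change from 4 marks to none. That from 23514001 to 23519200 had 14.3 (9.49 to 22.4), 9.297, 8.45 and 10.2 in spermatocytes and 6.68 (4.745 to 9.56), 5.22, 4.99 and 4.19 in round spermatids. In round spermatids the highest mean over the marks lay from 23783401 to 23791600, with folds of 12.1 (9.58 to 15.5), 6.95, 5.37 and 6.165 after 14.0 (10.6 to 18.6), 5.88, 4.26 and 7.63 in spermatocytes. It held its strength, with an H4K5bu and an H4K8ac fold that were the higher ones in round spermatids, within their intervals.

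The regions with the most reads were long, and the first in that order differed little between the stages. That from 23835201 to 23859000 held 9340 ChIP reads over the 8 lists. In spermatocytes H4K5ac stood at 9.83 (8.53 to 11.4), H4K5bu at 6.11 (5.35 to 7.01), H4K8ac at 5.17 (4.46 to 6.01) and H4K8bu at 7.59 (6.65 to 8.69). In round spermatids they were 9.62 (8.43 to 11.01), 6.52 (5.705 to 7.47), 4.59 (3.85 to 5.504) and 5.92 (5.22 to 6.74). Only the H4K8bu intervals came close to parting. The longest region of the span, 28600 bp from 22062201 to 22090800 in the left stretch, held 8970 reads, with an H4K5ac fold of 6.26 (5.48 to 7.17) and 7.03 (6.29 to 7.88). Its H4K8ac fold was the lower one in round spermatids, at 4.69 (3.94 to 5.6) and 3.54 (3.12 to 4.035), with intervals that overlap slightly. From 23389001 to 23414000, islands of round spermatids were wider than those of spermatocytes in every mark (23000 against 14400 bp for H4K5ac) and the H4K5bu fold was higher, at 5.18 (4.57 to 5.87) after 3.34 (2.80 to 3.999). The shorter region from 23616401 to 23628800 showed the other direction, with an H4K5ac fold of 6.77 (5.69 to 8.09) after 10.2 (8.48 to 12.4) and an H4K8bu fold of 5.37 (4.51 to 6.43) after 8.86 (7.365 to 10.7).

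Over the whole span the median fold of each mark was lower in round spermatids than in spermatocytes. The median log2 ratio of the fold in round spermatids to that in spermatocytes was -0.39 (-0.66 to -0.040) over 40 H4K5ac regions. It was -0.34 (-0.71 to 0.24) over 30 H4K5bu regions, -0.55 (-0.80 to -0.17) over 25 H4K8ac regions and -0.36 (-0.75 to 0.098) over 33 H4K8bu regions. On the rest of chromosome 13 the medians were -0.22, -0.027, -0.37 and -0.19, and over all regions -0.24, -0.092, -0.43 and -0.28. Each of these medians lies inside the interval of the span, so a difference of the span from the rest was not detectable with this number of regions. The size depended on the islands used for every mark. The H4K5ac value ran from -0.20 from summed reads to -0.56 with lists of equal length. That of H4K8ac ran from -0.34 with islands of at least 100 ChIP reads to -0.63 with lists of equal length. The H4K5bu median was -0.11 with islands of at least 100 ChIP reads, -0.17 with lists of equal length and -0.015 from summed reads, and the H4K8bu median was -0.70 and -0.72 with the first and second of these settings.

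Counted by a ratio of at least 1.5, regions with a lower fold in round spermatids outnumbered those with a higher one for all 4 marks. For H4K5ac 17 of 40 were lower (42.5%, against 35.1% of all regions) and 5 higher (12.5% against 17.6%). For H4K5bu 11 of 30 were lower (36.7% against 20.7%) and 4 higher (13.3% against 17.8%). For H4K8ac 11 of 25 were lower (44.0% against 40.7%) and 1 higher (4.0% against 6.96%), and for H4K8bu 15 of 33 were lower (45.5% against 35.5%) and 1 higher (3.03% against 11.8%). Of the 24 regions with all lists, 12 had all 4 marks lower in round spermatids (50.0% against 46.3% of all such regions) and 3 had all 4 higher (12.5% against 21.1%). The widest gap between a share in the span and over all regions was that of the lower H4K5bu regions. It rests on 11 of 30 regions, no interval was computed for it, and the H4K5bu stage difference was -0.015 from summed reads.

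Regions called for a mark in 1 stage only leaned the same way. In spermatocytes alone were 14 of 58 H4K5ac regions (24.14% against 30.2% of all regions), 13 of 52 H4K5bu regions (25% against 25.6%), 15 of 45 H4K8ac regions (33.3% against 38.0%) and 16 of 54 H4K8bu regions (29.6% against 31.6%). In round spermatids alone were 4 (6.90% against 21.3%), 9 (17.3% against 32.1%), 5 (11.1% against 19.3%) and 5 (9.26% against 20.9%). For each mark, the share called in round spermatids alone was thus smaller in the span than over all regions.

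**Figure D3:**
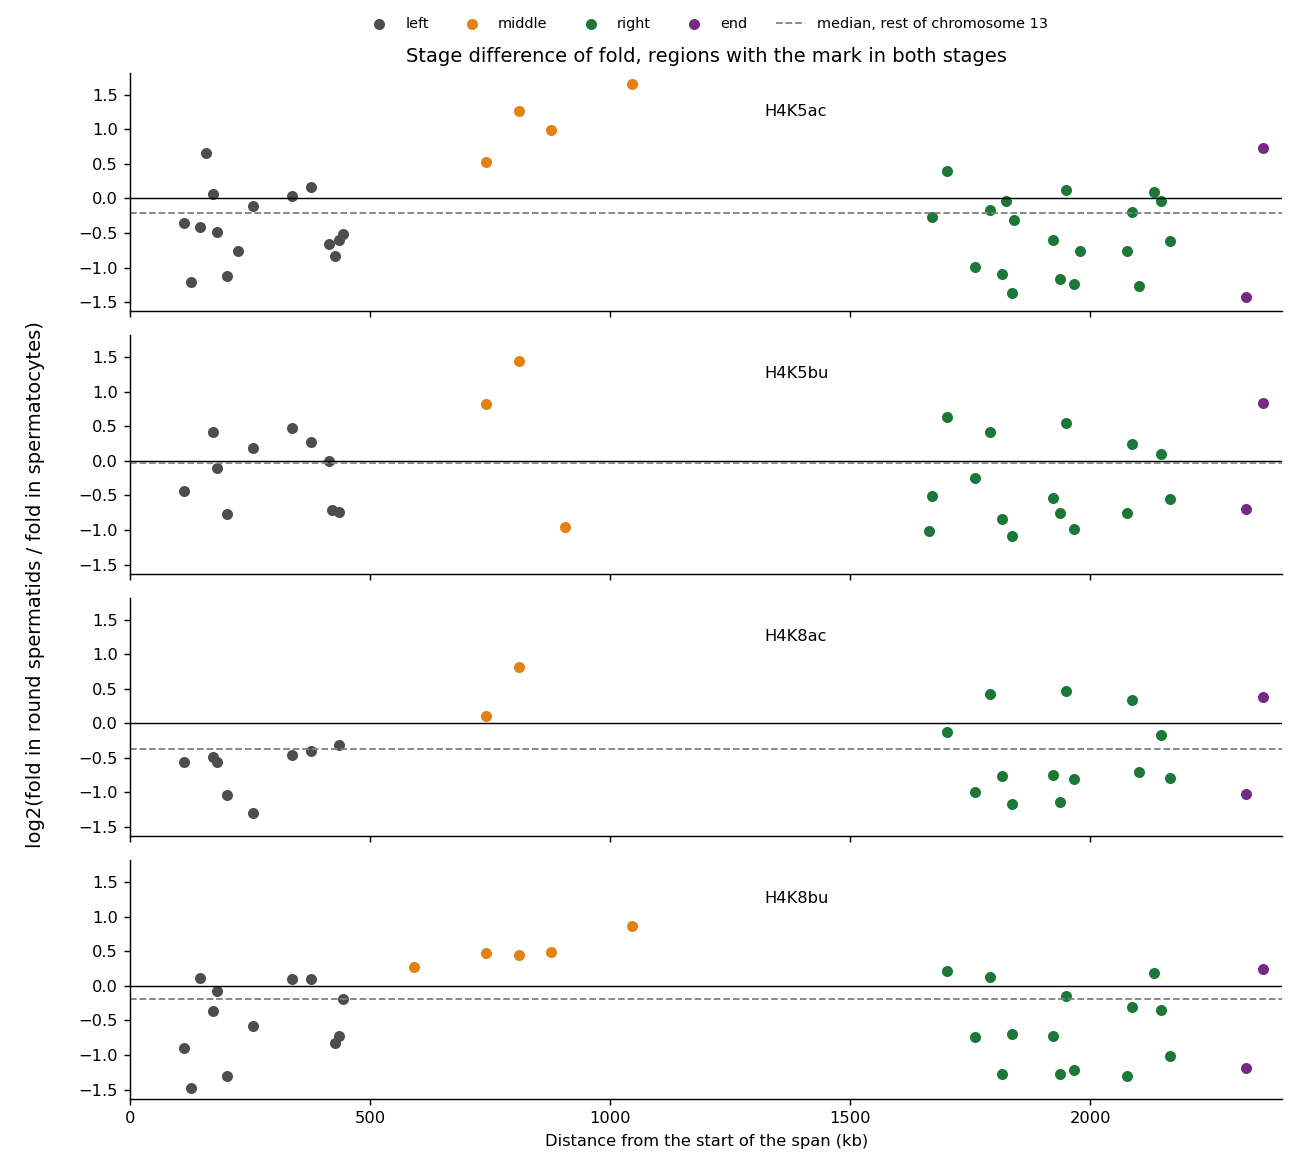
The log2 ratio of the fold in round spermatids to the fold in spermatocytes (vertical axes) for each region with the mark in both stages, by distance from the start of the span in kb (horizontal axis), 1 row per mark. Points are coloured by stretch, and the dashed line is the median of the rest of chromosome 13. All H4K5ac and H4K8bu points of the middle lie above 0, while most points of the left and right stretches lie below it.

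Within the span, the direction of the stage difference was not the same in every stretch. In the right stretch the median log2 ratio was -0.60 (-1.097 to -0.040) over 19 H4K5ac regions, -0.54 (-0.83 to 0.24) over 15 H4K5bu regions, -0.75 (-0.99 to 0.33) over 13 H4K8ac regions and -0.71 (-1.28 to 0.13) over 14 H4K8bu regions. In the left stretch it was, in the same order, -0.49 (-0.76 to 0.040) over 15 regions, -0.050 (-0.74 to 0.42) over 10, -0.52 (-1.293 to -0.31) over 8 and -0.48 (-0.90 to 0.097) over 12. The intervals held 0 for 3 of the 4 marks in each of these stretches. In the middle, all 4 regions with H4K5ac in both stages and all 5 with H4K8bu had a higher fold in round spermatids, with medians of 1.13 and 0.47. Both H4K8ac regions (0.46) and 2 of 3 H4K5bu regions (0.81) were higher as well. The middle was compared with the rest because of these values, and its regions are few, so this is a description. Pooled over the middle, H4K5ac had a fold of 3.71 (3.25 to 4.25) in spermatocytes, against 6.505 (5.82 to 7.28) in round spermatids, and the H4K8bu fold 2.88 (2.55 to 3.27) and 3.87 (3.51 to 4.27). Pooled over the right stretch, H4K5ac stood at 7.45 (7.03 to 7.905) and 6.03 (5.73 to 6.35). Pooled folds are levels of each stage's own called regions, for H4K5ac 6 and 7 in the middle and 26 and 20 in the right stretch, and not a difference over the same regions. In spermatocytes the middle was therefore the weakest stretch, and in round spermatids its H4K5ac fold was close to that of the left (6.14) and the right.

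Input reads differed between the stretches too. Per kb of H4K5ac island, input in spermatocytes was 19.1 reads in the middle, 12.3 in the left and 11.7 in the right stretch, and in round spermatids 18.4, 16.01 and 15.4. ChIP reads per kb of H4K5ac island were 42.1 in the middle in spermatocytes and 56.4 in round spermatids, 51.6 and 46.5 in the left stretch and 51.7 and 43.8 in the right. For H4K5ac, ChIP reads per kb were thus higher in round spermatids in the middle and lower in both flanks, where input reads per kb were also higher. This was not so for every mark: H4K5bu had 42.5 and 54.4 ChIP reads per kb in the middle but also 47.4 and 52.4 in the left stretch, and H4K8bu had 47.1 and 47.9 in the middle. These counts are not scaled by library size, and the part of the input in the result was not tested.

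Among the middle regions, that from 22505401 to 22514200 had the most reads. Its H4K5ac fold was 3.39 (2.69 to 4.29) in spermatocytes, from 225 ChIP and 112 input reads, and 8.16 (6.68 to 10.02) in round spermatids, from 478 and 124. The H4K5bu fold was 1.92 (1.53 to 2.42) and 5.24 (4.32 to 6.38), the H4K8ac fold 2.37 (1.855 to 3.03) and 4.16 (3.34 to 5.22), and the H4K8bu fold 3.202 (2.60 to 3.96) and 4.37 (3.685 to 5.2). For the first 3 marks the intervals do not meet, over islands of nearly the same width (5600 and 6400 bp for H4K5ac). In the region from 22744001 to 22747400, H4K5ac stood at 2.81 (1.94 to 4.11) and 8.88 (6.41 to 12.5), over 48 and 46 input reads, and the H4K8bu fold 2.53 (1.75 to 3.71) and 4.59 (3.45 to 6.17). H4K5bu, at 4.93, and H4K8ac, at 3.39, were called there in round spermatids only. The region from 22573001 to 22577800 had the same pattern, with H4K5ac at 2.83 (1.85 to 4.37) and 5.625 (4.30 to 7.42), and H4K5bu at 4.12 and H4K8ac at 3.23 in round spermatids only. From 22437601 to 22442600 all 4 marks were called in both stages, with H4K5ac at 6.09 (3.97 to 9.62) and 8.74 (6.32 to 12.3).

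Regions next to these were called in round spermatids alone, for all marks but H4K8ac. The region from 22515001 to 22518000 had H4K5ac at 3.66 (2.49 to 5.43), H4K5bu at 2.155 (1.495 to 3.13) and H4K8bu at 2.77 (1.83 to 4.255). That from 22748201 to 22756600 had the same marks at 3.598 (2.66 to 4.905), 2.98 (2.31 to 3.88) and 2.63 (2.00 to 3.47). In other middle regions marks were called in spermatocytes that had no island in round spermatids. From 22604801 to 22608000 spermatocytes had all 4 marks, with H4K5ac at 7.195 (5.12 to 10.3), H4K5bu at 5.01 (3.60 to 7.1), H4K8ac at 3.73 (2.65 to 5.33) and H4K8bu at 3.05 (2.25 to 4.17). Round spermatids had H4K5bu alone there, at 2.59 (1.74 to 3.9). The weak region from 22288601 to 22294000 had H4K5ac at 1.98 (1.37 to 2.86), H4K8ac at 1.59 (1.14 to 2.21) and H4K8bu at 1.695 (1.197 to 2.41) in spermatocytes, and H4K8bu alone, at 2.04 (1.43 to 2.93), in round spermatids.

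In the flanks, several of the largest differences were in short regions. Between 23534601 and 23539800, H4K5ac stood at 14.9 (9.93 to 23.4) in spermatocytes and at 5.76 (4.19 to 8.02) in round spermatids, and the H4K5bu fold 11.2 (7.305 to 18.1) and 5.32 (3.97 to 7.23). The H4K8ac fold was 8.17 (5.14 to 13.6) and 3.65 (2.51 to 5.401). The first and the second pair of intervals do not meet, and the third overlaps. From 21824201 to 21829000 the H4K8bu fold was 7.82 (4.86 to 13.2) and 2.81 (1.96 to 4.06), and H4K5bu and H4K8ac were called in spermatocytes only. From 23773601 to 23778400 the H4K8bu fold was 8.145 (5.855 to 11.6) and 3.295 (2.395 to 4.58), and H4K8ac, at 5.43 (4.001 to 7.49) in spermatocytes, had no island in round spermatids. The last region of the span, from 24055801 to 24064600, went against its neighbour at 24018601. Its H4K5ac fold was 2.99 (2.39 to 3.76) in spermatocytes, against 4.97 (4.18 to 5.93) in round spermatids, and its H4K5bu fold 2.15 (1.70 to 2.735) and 3.82 (3.17 to 4.62).

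Some folds were set over islands of very different width. The largest drop of H4K8ac by ratio, from 21949201 to 21962800, set a fold of 6.99 (4.69 to 10.8) over 1800 bp in spermatocytes against one of 2.85 (2.38 to 3.42) over 10600 bp in round spermatids. Its H4K5ac fold, over 6000 and 9200 bp, was 5.61 (4.45 to 7.12) and 5.215 (4.35 to 6.28).

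Butyrylation against acetylation of a lysine was close to that of the rest of chromosome 13. The balance, the log2 ratio of the butyryl to the acetyl fold of a region, had a median at K5 of -0.63 (-0.75 to -0.47) in spermatocytes over 42 regions and of -0.43 (-0.60 to -0.29) in round spermatids over 33. On the rest of the chromosome it was -0.61 and -0.36. At K8 it was 0.28 (0.084 to 0.44) over 37 regions and 0.30 (0.20 to 0.38) over 29, against 0.24 and 0.34. So H4K5bu had a lower fold than H4K5ac in nearly all regions, and H4K8bu a higher one than H4K8ac in most. The butyryl fold was the higher one at K5 in 2 of 42 regions in spermatocytes (4.76% against 5.89% of all regions) and in 3 of 33 in round spermatids (9.09% against 13%). At K8 it was the higher one in 31 of 37 (83.8% against 75.5%) and in 25 of 29 (86.2% against 84.4%).

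Of 27 regions that carried both K5 marks in both stages, 24 had the higher K5 balance in round spermatids (88.9% against 76.2% of all regions). The median change was 0.29 (0.11 to 0.41), against 0.29 on the rest of the chromosome. The K5 balance was the higher one in round spermatids in 7 of 9 regions of the left stretch (77.8%) and in 13 of 14 of the right (92.9%). In the middle, where both K5 marks had the higher fold in round spermatids, the balance was higher in both of its regions, by 0.18 and 0.29. At K8 the median change was -0.16 (-0.34 to 0.34) over 24 regions, of which 10 were higher, against 0.071 on the rest of the chromosome, a value inside the interval.

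**Figure D4:**
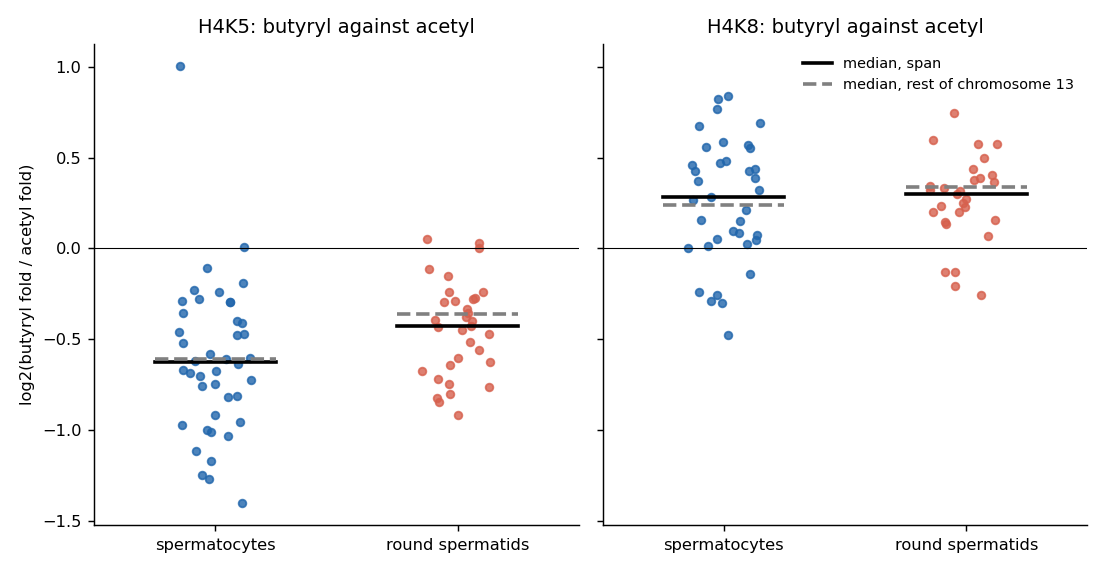
The log2 ratio of butyryl to acetyl fold (vertical axis) at K5 (left panel) and K8 (right panel) in both stages (horizontal axis), 1 point per region of the span with both marks. Black lines are the medians of the span (-0.63 and -0.43 at K5, 0.28 and 0.30 at K8), and dashed lines those of the rest of chromosome 13.

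Both extremes of the K5 balance in spermatocytes rested on islands of unequal width. The highest at K5, 1.01 in spermatocytes from 23539801 to 23543800, came from an H4K5bu fold of 7.01 (3.67 to 14.7) over 1400 bp and 11 input reads, beside H4K5ac at 3.49 (2.21 to 5.645) over 2600 bp. The lowest, -1.40 in spermatocytes from 23484201 to 23496800, came from an H4K5bu fold of 1.51 (1.22 to 1.88) over 5200 bp and an H4K5ac fold of 4.002 (2.89 to 5.61) over 4000 bp. In that region input was deep, with 156 reads in the H4K5bu island, and the H4K8ac fold of 1.34 (1.06 to 1.71) was the lowest of its list in the span. At K8 in spermatocytes the highest balance, 0.84, was that of the region from 23783401 to 23791600, with 7.63 (6.05 to 9.74) for H4K8bu over 6400 bp and 4.26 (3.385 to 5.41) for H4K8ac over 6800 bp, islands of like width whose intervals do not meet.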

How the data were processed

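ChIP-seq had been carried out on 10 samples, 1 library per mark and stage and 1 input per stage. Per the submitters' processing notes, the tools were Bowtie2 2.2.5, SICER, CASAVA 1.8.2 and deepTools 1.5.11, with the build mm9. Settings, duplicate handling and the placing of multiply mapping reads are not given in the sources used here. As 8 lists of islands the authors deposited, in files without a header whose columns were read from their values, a count of ChIP reads and a count of input reads, a p-value, a q-value and a fold, a ratio that equals ChIP over input reads times 1 constant per list. Every deposited q-value was below 0.01. Depth, as ChIP reads inside islands, was 4768412 to 9230541 per library.

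Islands of all lists were merged where they overlapped. The fold of a region came from the summed reads of a list's islands in it, times the constant (1.18 to 2.12), so it covers called islands only. The rest of chromosome 13 (115 Mb) runs from the first to the last island without the span. Intervals were exact binomial (Clopper-Pearson) for shares and folds and from order statistics for medians. Intervals for shares and folds cover counting error only. No molecular identifiers are described, and reads can be copies of 1 molecule, so intervals from reads can be too narrow. Scripts (Python 3.11.15, pandas, SciPy) were tested on simulated counts.

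Regions to name were those with the most reads (6), the highest mean log2 fold (3 per stage, at least 50 ChIP reads in each mark), the most reads among those called in a single stage (2 per mark and stage), the largest stage ratio (2 per mark and direction) and the most extreme balance (both with at least 50 reads). The rule gave 34 regions, of which the text gives those it needs. The region at 22288601 was added after its values were seen. A ratio of 1.5 counted as higher or lower, and stretches were parted by gaps of at least 100 kb, with the second and the third joined as the middle. The members, lists and rules were chosen with earlier results of these data known. Alternatives were islands with at least 100 reads, lists of equal length, a narrower span, covered bases, summed reads and an overlap of 50%.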

Additional observations from a re-analysis of the deposited data

How the results depend on the processing

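Of 81 values of the span under alternatives, 78 stayed within the interval of the reported value and none changed sign. The order of span and rest of chromosome 13 did change once: with islands of at least 100 ChIP reads the H4K8ac stage difference was -0.34 in the span and -0.36 on the rest. By covered bases in place of islands, the log2 density ratio of the span to the rest of chromosome 13 left its interval for H4K8bu, at 0.979 in spermatocytes (0.42 by islands) and 0.867 in round spermatids (0.41). With only regions of like covered length (added after seeing the data), the K8 balance in round spermatids was 0.381 in place of 0.30. For H4K5ac, H4K5bu and H4K8bu the stage difference was nearest to 0 by reads summed over the span, at -0.20, -0.015 and -0.27. For H4K8ac it was -0.35 by summed reads and -0.34 with islands of at least 100 ChIP reads. With the middle stretch left out (also added after seeing the data) H4K5ac stood at -0.51, H4K5bu at -0.44, H4K8ac at -0.56 and H4K8bu at -0.64. With lists of equal length, span and rest were close for 3 marks, at -0.56 and -0.54 (H4K5ac), -0.17 and -0.15 (H4K5bu) and -0.63 and -0.61 (H4K8ac), and stood at -0.72 and -0.53 for H4K8bu. The share of regions in all 8 lists ran from 32.6% to 35.3%. With the round spermatid H4K8ac list left out (also added after seeing the data), 36.8% of regions were in all other lists. Of the H4K5ac islands of the span in spermatocytes, 33.3% were covered to at least 50% in every list. Because no group had a second library, no library could be left out within a group. No paired analysis was possible because each group held 1 library and no result came from a test.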
